A study of Mus musculus with 11 samples.

Results

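The 9 genes described here, Esrrb, Nr5a2, Nr0b1, Tfcp2l1, Gbx2, Tbx3, Prdm14, Zfp42 and Tcl1, encode regulators or markers of naive pluripotency that have also been linked to primitive endoderm (PrE). They were chosen by name, and the choice used no measured value. All 9 were present among 48952 genes in a table of 9 bulk RNA-seq libraries and among 32285 genes in 2 droplet single-cell libraries. The cells were nEnd (naive extra-embryonic endoderm), a mouse culture model of PrE kept on feeder fibroblasts in RACL, a medium with Activin A, the GSK3 inhibitor CHIR99021 and the cytokine LIF. For the bulk libraries, untreated nEnd of the OCT4-mCherry line, which carries a fluorescent OCT4 reporter, was stained for the endoderm receptor PDGFRA and sorted by flow cytometry. The 3 sorted groups were Pdgfra+ (receptor only), DP (receptor and reporter, double positive) and Oct4+ (reporter only), with 3 libraries each. For the single-cell libraries, nEnd was made from the homozygous Oct4-LOF line (EPUc in the labels), in which 4-hydroxytamoxifen (4OHT) induces loss of Pou5f1, the gene for OCT4. PDGFRA-positive cells of this line were sorted and cultured without 4OHT (library -4OHT) or with it (library +4OHT). By the study's account, 4OHT was present only in the first part of the culture, and RACL without it followed. DAPI-negative cells were then loaded, with 1 library per condition and no replicate. No library here came from 4OHT-treated cells without the inducible allele, so an effect of 4OHT itself cannot be told apart from loss of Pou5f1.

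Naive pluripotency is the state of the preimplantation epiblast and of embryonic stem cells (ESCs) held by LIF and GSK3 inhibition. In it, a circuit of transcription factors sustains OCT4, SOX2 and NANOG: LIF acts through STAT3 on Tfcp2l1, Gbx2 and other factors, and GSK3 inhibition relieves TCF7L1 repression of Esrrb, Tfcp2l1 and other targets. PrE arises from the same inner cell mass and shares part of this circuit early on, before GATA6, SOX17 and basement membrane genes come to dominate its transcriptome.

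The promoter sequences of 7 of the 9 genes were found in RefSeq (build GRCm38.p6), as 9 windows of 300 bases that ran from 250 bases before to 50 bases after a transcription start. Each window was searched on both strands for the ESRRB/NR5A2 motif (TCAAGGTCA, and its shorter core AAGGTCA, which lies within it), the octamer bound by OCT4 (ATTTGCAT), a STAT3 motif (TTCCNGGAA), a TCF motif (CTTTGAT) and the TFCP2L1 motif. The only match among the 9 windows was an octamer in the window of Zfp42, at bases -186 to -179 from the start. The octamer occurred in 1.74% of all 32851 windows, against 0.423% for TCAAGGTCA, 4.72% for AAGGTCA, 1.15% for the STAT3 motif, 3.73% for the TCF motif and 3.44% for the TFCP2L1 motif. A match is a run of letters, and its absence says only that these letters were not in the window. The bases before the start are shown for Zfp42, with the octamer in capitals, and for Tcl1 and Nr0b1, 2 genes with at least 1 DP library within the range of Oct4+. They are from chr8:43307010-43307259 (minus strand), chr12:105222738-105222987 (minus strand) and chrX:86191525-86191774 (plus strand), each 5′ to 3′.
Zfp42: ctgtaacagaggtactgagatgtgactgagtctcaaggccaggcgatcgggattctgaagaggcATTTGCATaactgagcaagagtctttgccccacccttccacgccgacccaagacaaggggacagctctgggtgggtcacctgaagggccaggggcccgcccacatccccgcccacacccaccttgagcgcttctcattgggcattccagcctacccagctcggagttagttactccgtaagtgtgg
Tcl1: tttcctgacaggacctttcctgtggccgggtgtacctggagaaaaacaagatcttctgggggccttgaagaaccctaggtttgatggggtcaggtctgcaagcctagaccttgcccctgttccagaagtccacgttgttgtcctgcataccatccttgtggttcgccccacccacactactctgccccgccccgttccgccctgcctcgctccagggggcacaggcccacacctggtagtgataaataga
Nr0b1: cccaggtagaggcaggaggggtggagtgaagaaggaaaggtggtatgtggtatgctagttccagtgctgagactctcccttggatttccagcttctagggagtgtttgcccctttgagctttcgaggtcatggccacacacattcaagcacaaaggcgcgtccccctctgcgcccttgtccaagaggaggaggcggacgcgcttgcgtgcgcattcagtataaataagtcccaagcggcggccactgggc

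The bulk libraries held 8019631 to 11642571 reads, and levels are given as CPM, counts per 1000000 on library sizes scaled by TMM. The sort was reflected in the transcripts: Pou5f1 was at 17.5 ± 9.0 CPM in Pdgfra+, 229 ± 90.3 in DP and 981 ± 142 in Oct4+ (SD, n = 3 libraries), and Pdgfra was at 729 ± 219, 590 ± 153 and 7.43 ± 4.07 CPM. Pdgfra+ replicate 3 had a higher sum over the fibroblast list (317 CPM over 12 genes) than the other Pdgfra+ libraries (86.8 and 101) and the DP libraries (41.9 to 64.7). Of the 12 genes, 6 were too low to test, Lum, Dcn and Postn among them. The list includes Fbln1, which in the single-cell library -4OHT was at 32.4 UMIs per 1000000 in endoderm cells and 12.5 in 8 fibroblast cells. The sum is therefore not a measure of feeder RNA alone. DP replicate 2 had the lowest sum of the 18-gene endoderm list among the endoderm-sorted libraries (49716 CPM, against 61016 and 74261 in the other DP libraries and 71828 to 92844 in Pdgfra+). The part of any library's makeup in the results below was not tested, and in bulk RNA fewer expressing cells and less RNA per cell cannot be told apart.

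All 9 genes had higher levels in every DP library than in every Pdgfra+ library, and 8 of the 9, Tbx3 being the exception, had higher levels in every Oct4+ library than in every Pdgfra+ library. Non-overlap between DP and Pdgfra+ was seen for 34.2% of all 14185 genes tested (17.4% with DP higher), and between Oct4+ and Pdgfra+ for 69.3% (34.8% with Oct4+ higher). Between Oct4+ and DP, 6 genes did not overlap (Tbx3, Nr0b1 and Tcl1 did), against 62.6% of all genes (31.9% with Oct4+ higher). By edgeR's quasi-likelihood test with a minimum absolute log2 fold change of 1.5 and an adjusted p below 0.05, 5 of the 9 were higher in DP than in Pdgfra+ (background 3.89% of genes, 3.2% higher and 0.691% lower), 6 were higher in Oct4+ than in DP (14.6% higher) and 8 were higher in Oct4+ than in Pdgfra+ (17.3% higher), with 0 lower in each. The median log2 fold change over the 9 was 2.88 from Pdgfra+ to DP and 2.70 from DP to Oct4+, against 0.02 and 0.04 over all genes. The contrasts share groups and are not independent of each other.

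**Figure D1:**
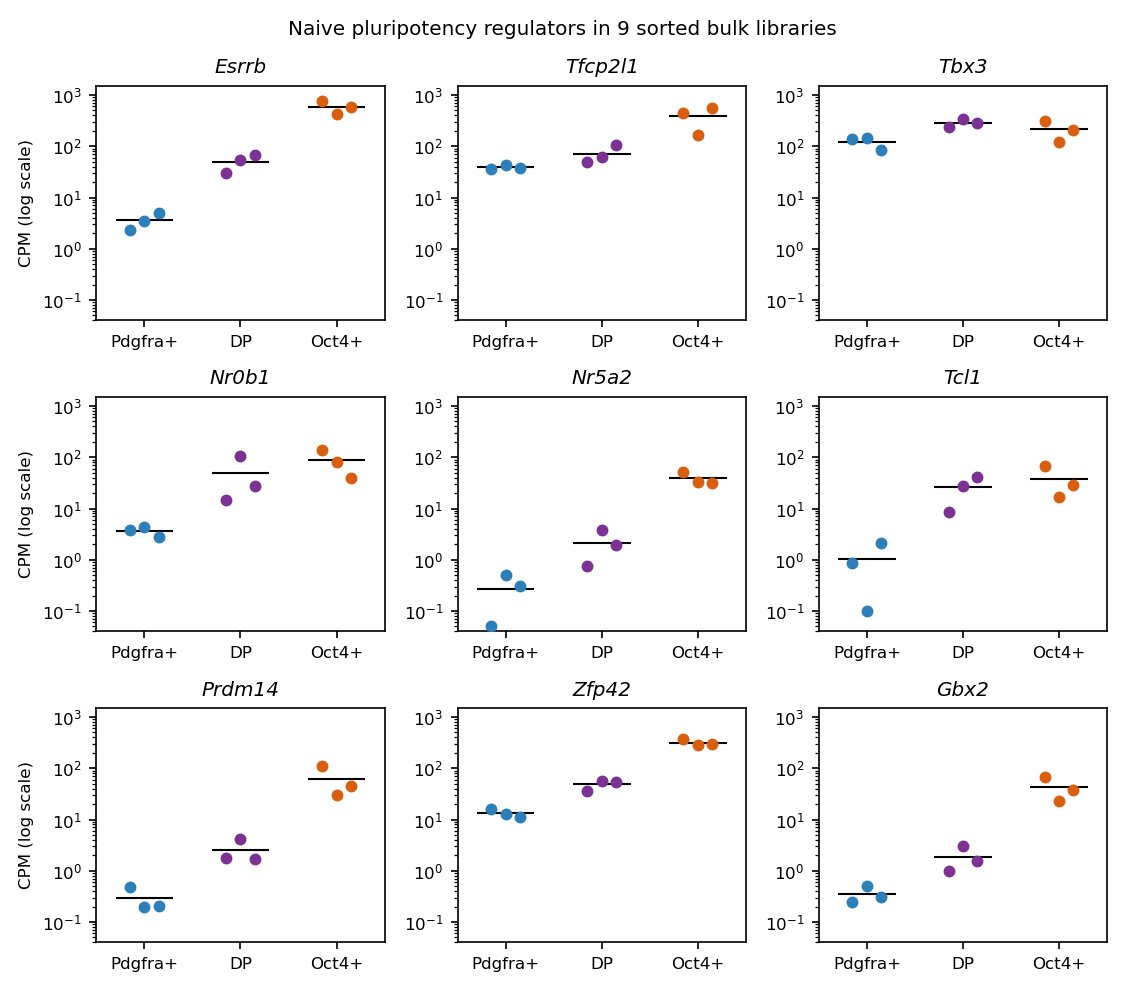
Level of each gene in the 9 bulk libraries, in CPM on a log axis, for the sorted groups Pdgfra+, DP and Oct4+; points are libraries and lines are group means (n = 3). The Pdgfra+ library with 0 reads of Nr5a2 is drawn at 0.05. Esrrb climbs in even log steps, the DP libraries of Tcl1 overlap with Oct4+, as does 1 of Nr0b1 (105 CPM), and the Oct4+ libraries of Tbx3 overlap with both other groups.

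Of the nuclear receptors, Esrrb, an orphan receptor of the estrogen-related family and a direct target of NANOG and TCF7L1, was at 2.32, 3.49 and 5.01 CPM in Pdgfra+, at 30.3, 53.5 and 66.7 CPM in DP and at 752, 419 and 588 CPM in Oct4+. No library of any group overlapped with another group. Its log2 step from Pdgfra+ to DP was 3.78 (SE 0.38, edgeR adjusted p = 0.00725) and that from DP to Oct4+ was 3.55 (SE 0.34, adjusted p = 2.49e-05). The difference of both steps was 0.23 (SE 0.56, adjusted p = 0.804). Esrrb kept its call from Pdgfra+ to DP when each of the 9 libraries was left out in turn, as did Zfp42, and no other of the 9 genes did.

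Nr5a2 (LRH-1), a receptor that binds the same DNA motif as ESRRB, was at or near the floor in endoderm. Its reads numbered 0, 5 and 3 in Pdgfra+ (0.00, 0.50 and 0.31 CPM) and 6, 32 and 15 in DP (0.75, 3.78 and 1.96 CPM), against 52.4, 32.4 and 31.0 CPM in Oct4+. All groups were apart from each other, but the DP step of 2.88 (SE 0.76) had an edgeR adjusted p of 0.0505 and was not called, while DESeq2 called it with an adjusted p of 0.00139. The step from DP to Oct4+ was 4.14 (SE 0.56, edgeR adjusted p = 0.000179).

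Nr0b1 (DAX1), an X-linked receptor-like protein without the usual DNA-binding domain that binds to OCT4 and NR5A2, was at 3.78, 4.38 and 2.82 CPM in Pdgfra+. In DP it was at 14.5, 105 and 27.4 CPM, and in Oct4+ at 141, 81.4 and 40.1 CPM. DP replicate 2 lay inside the Oct4+ range and the other DP libraries below it. From Pdgfra+ to DP the log2 fold change was 3.73 (SE 0.76, edgeR adjusted p = 0.0238), a call lost without any Pdgfra+ library or without DP replicate 2 or 3 (adjusted p up to 0.0996). From DP to Oct4+ the difference was 0.84 (SE 0.64, edgeR adjusted p = 0.285), and without DP replicate 2 it was 2.05 with an adjusted p of 0.00733.

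Among the factors tied to LIF and WNT signals, Tfcp2l1, a grainyhead-like factor downstream of STAT3, was already well above the floor in Pdgfra+, at 35.3, 43.4 and 38.2 CPM. It was at 48.6, 60.7 and 104 CPM in DP and at 455, 167 and 564 CPM in Oct4+. The groups were apart, and the DP libraries sat close above the Pdgfra+ libraries: the log2 fold change to DP was 0.86 (SE 0.41, edgeR adjusted p = 0.217), and that from DP to Oct4+ was 2.48 (SE 0.42, adjusted p = 0.000716).

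Gbx2, a homeobox factor induced by LIF and STAT3, was at 0.24, 0.50 and 0.31 CPM in Pdgfra+ and at 1.0, 3.07 and 1.57 CPM in DP, from 8 to 26 reads a DP library. Oct4+ libraries held 68.4, 22.7 and 36.9 CPM. The step to DP, 2.36 (SE 0.67), had an edgeR adjusted p of 0.0634 and a DESeq2 adjusted p of 0.00736, and the step from DP to Oct4+ was 4.49 (SE 0.51, edgeR adjusted p = 6.31e-05).

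Tbx3, a T-box factor that supports self-renewal and can also promote extra-embryonic endoderm genes in ESCs, did not share this pattern. It was at 139, 146 and 85.1 CPM in Pdgfra+, at 236, 345 and 281 CPM in DP and at 316, 119 and 210 CPM in Oct4+. DP libraries were above all Pdgfra+ libraries, and the Oct4+ libraries overlapped with both groups. The log2 differences were 1.22 from Pdgfra+ to DP (SE 0.33, edgeR adjusted p = 0.0551), -0.42 from DP to Oct4+ (SE 0.33, adjusted p = 0.299) and 0.80 from Pdgfra+ to Oct4+ (SE 0.33, adjusted p = 0.0542), and none was called.

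Of the zinc finger genes, Zfp42 (REX1), the classical marker of naive ESCs, was at 16.2, 12.9 and 11.3 CPM in Pdgfra+, at 36.0, 56.9 and 53.6 CPM in DP and at 367, 278 and 304 CPM in Oct4+. Its groups did not overlap, and its steps had the smallest SEs of the 9. They were 1.86 (SE 0.21, edgeR adjusted p = 0.00725) and 2.70 (SE 0.21, adjusted p = 7.87e-06).

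Prdm14, a PR-domain factor that restrains FGF signalling and DNA methyltransferase genes and is needed in germ cells, was nearly absent from endoderm. Its 4, 2 and 2 reads in Pdgfra+ (0.49, 0.20 and 0.21 CPM) compared with 14, 36 and 13 in DP (1.75, 4.25 and 1.70 CPM), and Oct4+ libraries held 110, 30.5 and 45.3 CPM. The step to DP was 3.10 (SE 0.79, edgeR adjusted p = 0.0468) and was lost without any Pdgfra+ library and without DP replicate 2 or 3 (adjusted p up to 0.175). From DP to Oct4+ the step was 4.58 (SE 0.56, adjusted p = 9.74e-05).

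Tcl1, a coactivator of AKT and a known OCT4 target, had the largest step into DP of the 9. It was at 0.85, 0.10 and 2.09 CPM in Pdgfra+ (7, 1 and 20 reads), at 8.48, 28 and 40.8 CPM in DP and at 68.0, 17.0 and 28.8 CPM in Oct4+. DP libraries were above all Pdgfra+ libraries and overlapped with Oct4+. The log2 fold change to DP was 4.65 (SE 0.87, edgeR adjusted p = 0.0199), lost without any Pdgfra+ library or DP replicate 2 or 3 (adjusted p up to 0.0614), and that from DP to Oct4+ was 0.56 (SE 0.67, adjusted p = 0.497). Tcl1 alone of the 9 was called for unequal steps, with a difference of 4.09 (SE 1.24, edgeR adjusted p = 0.0374), where 24.1% of all genes were called (16.4% positive and 7.62% negative, and 53.4% positive among calls on library totals without TMM against 68.3% with it). That call was lost in DESeq2 (adjusted p = 0.0557), which called Nr0b1 (0.0328) and Tbx3 (0.0313) instead, and without Pdgfra+ replicate 1 or 2, DP replicate 2 or 3 or Oct4+ replicate 2 or 3 (edgeR adjusted p = 0.0557 to 0.172).

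Levels of different genes were compared as CPM per kilobase of exon sequence (GENCODE vM21, build GRCm38). In Oct4+, Zfp42 was highest (168 ± 24.4 CPM per kb), above every library of Esrrb (97.0 ± 27.6). Nr0b1 (48.4 ± 28), Tfcp2l1 (41.9 ± 21.7), Tbx3 (32.5 ± 14.9), Prdm14 (24.1 ± 16.5), Tcl1 (20.6 ± 14.5) and Gbx2 (19.6 ± 10.7) followed, each overlapping with its neighbour, and Nr5a2 was lowest at 6.55 ± 2.03, below every Gbx2 library. In Pdgfra+ the order was another: Tbx3 (18.6 ± 5.04), Zfp42 (7.15 ± 1.35), Tfcp2l1 (4.13 ± 0.438) and Nr0b1 (2.03 ± 0.437) were each apart from the next. Esrrb (0.596 ± 0.223) overlapped with Tcl1 (0.550 ± 0.544), and Gbx2, Prdm14 and Nr5a2 lay lower, each overlapping with its neighbour. In DP, Tbx3 (43.4 ± 8.25), Nr0b1 (27.0 ± 27.0), Zfp42 (26.0 ± 5.96) and Tcl1 (14.0 ± 8.82) led, Esrrb (8.29 ± 3.04) and Tfcp2l1 (7.52 ± 3.07) were alike, and Prdm14, Gbx2 and Nr5a2 were at 1.0 ± 0.569 or below.

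The position of DP was set on a log2 CPM scale where 0 is the Pdgfra+ mean and 1 the Oct4+ mean. Its median over the 9 genes was 0.419 ± 0.095 (SD over 3 DP libraries), and over the 2455 genes higher in Oct4+ than in Pdgfra+ it was 0.238 ± 0.056. The sets differ in kind, since the 9 include Tbx3, which was not called higher in Oct4+ and is outside the 2455. Tfcp2l1 (0.250 ± 0.177), Gbx2 (0.292 ± 0.118), Nr5a2 (0.346 ± 0.160), Prdm14 (0.350 ± 0.103) and Zfp42 (0.403 ± 0.078) were nearer to Pdgfra+, and Esrrb (0.509 ± 0.080) was midway. Nr0b1 (0.735 ± 0.334) and Tcl1 (0.886 ± 0.227) were nearer to Oct4+, and Tbx3, whose end points differ little, was beyond it (1.70 ± 0.375). The references were at 0.377 ± 0.093 (Nanog), 0.449 ± 0.049 (Sox2) and 0.633 ± 0.107 (Pou5f1), and of the 9 means those of Zfp42 and Esrrb lay between them. Genes with few reads moved with the prior count. At prior counts of 0.5 and 5, Nr5a2 was at 0.412 and 0.290, Prdm14 at 0.389 and 0.301 and Gbx2 at 0.325 and 0.249.

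**Figure D2:**
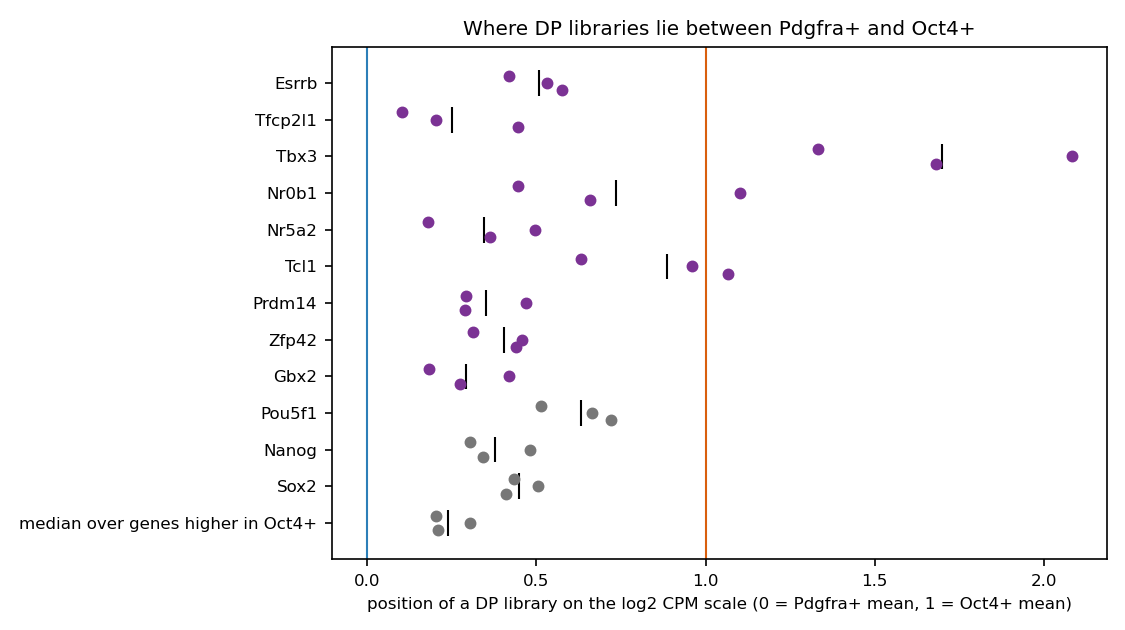
Position of the 3 DP libraries between the Pdgfra+ mean (0) and the Oct4+ mean (1) on the log2 CPM scale, for the 9 genes (purple) and for Pou5f1, Nanog, Sox2 and the median of genes higher in Oct4+ (grey); vertical ticks are means. Tbx3 lies beyond 1 and Tcl1 and Nr0b1 pass it in 1 library each (1.07 and 1.10).

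On a linear scale, with the Pdgfra+ mean taken off, the DP libraries held 1.46, 4.62 and 1.91% of the Oct4+ mean for Nanog and 3.90, 5.92 and 3.32% for Sox2, genes that mark epiblast-like cells. Gbx2 (1.53, 6.42 and 2.88%), Prdm14 (2.35, 6.41 and 2.27%) and Nr5a2 (1.25, 9.14 and 4.41%) lay on either side of these references: Gbx2 and Prdm14 were above both in replicate 2 and between them in replicates 1 and 3, and Nr5a2 was below both in replicate 1 and above both in replicates 2 and 3. Esrrb (4.58, 8.55 and 10.8%) and Zfp42 (7.45, 14.3 and 13.2%) were above Sox2 in each DP library. Tfcp2l1 (2.71, 6.09 and 18.2%) was above it in DP replicates 2 and 3 and below it in replicate 1. Above both Esrrb and Zfp42 in every DP library were Pou5f1 itself (11.9, 23.6 and 30.4%), Tcl1 (20.2, 73.0 and 108%), Nr0b1 (12.9, 121 and 28.4%) and Tbx3 (122, 241 and 172%). How many Oct4+ cells a DP sort held was not measured, and their part in these levels was not tested.

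Other naive genes also moved in the direction of the 9. Of 4 core genes, Pou5f1, Sox2 and Nanog were called in each of the 3 contrasts and Sall4 in none. Among 20 other naive genes, 10 were higher in DP than in Pdgfra+ and 18 in Oct4+ than in Pdgfra+, with medians of 2.04 and 4.2 on the log2 scale. Tdgf1, a Nodal co-receptor, went from 1.15 ± 1.29 to 10.8 ± 6.14 and 420 ± 111 CPM, Dppa2 from 4.74 ± 1.90 to 33.8 ± 14.5 and 140 ± 19.5 CPM, and the chromatin-associated Utf1 from 14.2 ± 6.6 to 95.5 ± 77.5 and 307 ± 121 CPM. The LIF-responsive factor Klf2 was at 1.54 ± 0.202, 7.27 ± 0.752 and 251 ± 62.5 CPM. Of 10 formative or primed genes tested, none passed between DP and Pdgfra+ and 7 were higher in Oct4+ than in Pdgfra+, Lef1, Sox3 and Pou3f1 with the largest log2 fold changes (5.45, 5.10 and 4.16).

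Signal pathway genes and binding partners of the 9 are given as counts. Of all genes, 3.89% passed between DP and Pdgfra+ and 32% between Oct4+ and Pdgfra+. Among 12 LIF and STAT3 genes, 1 passed between DP and Pdgfra+: Socs2, a feedback inhibitor of cytokine signals, at 2.57 ± 0.434, 11.2 ± 6.52 and 30.6 ± 16.4 CPM. The kinase gene Pim1 was 3.71 higher and Lif was 3.30 lower in Oct4+ than in Pdgfra+ on the log2 scale (SE 0.34 and 0.41). None of 12 WNT and TCF genes passed between DP and Pdgfra+, and 5 passed between Oct4+ and Pdgfra+, among them Cdx1 (10.1, higher), Nkd1 (3.38, higher) and Tcf7l2 (-3.90, lower). Of 11 protein partners none passed into DP, with a median of -0.03, and 1 passed between Oct4+ and Pdgfra+: Akt1, the kinase that TCL1 binds, at 297 ± 13.1, 236 ± 19.6 and 44.1 ± 6.15 CPM. Akt1 was lower in Oct4+, by -2.75 on the log2 scale against Pdgfra+ (SE 0.14, edgeR adjusted p = 1.15e-06).

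Most paralogs of the 9 were too low to test or were not called. Of 23 listed, 12 were too low to test, Esrrg, Nr5a1 and the Tcl1b genes among them. Tbx4 passed into DP, at 0.07 ± 0.06, 0.81 ± 0.40 and 9.09 ± 2.74 CPM in Pdgfra+, DP and Oct4+. Prdm1 was also higher in Oct4+ than in Pdgfra+ (log2 4.38, SE 0.58, edgeR adjusted p = 0.000121). Among the cell type lists, 2 of 18 endoderm genes were higher in DP than in Pdgfra+, the visceral endoderm receptor genes Amn (164 ± 46.6 to 663 ± 184 CPM) and Cubn (629 ± 139 to 2357 ± 786 CPM), and 17 were lower in Oct4+. Of 9 trophectoderm and 10 2-cell-like genes, 1 each was higher in DP (Tfap2c and Usp17lc, with means of 1.56 and 2.59 CPM there), and of 6 fibroblast genes Fbln1 was lower (144 ± 104 to 47.5 ± 12.2 CPM). Fbln1 was not particular to fibroblasts: in the single-cell library -4OHT it had a UMI in 34.0% of endoderm cells. In Oct4+ against Pdgfra+ all 10 2-cell-like genes and 3 of the 6 fibroblast genes were higher.

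Across the 9 libraries, the genes whose log2 CPM most resembled each of the 9 (Pearson r, genes at a mean of 10 CPM or more) were outside the lists used here, apart from Nanog and L1td1. They were Syt9 (0.996) and Pdk4 (0.992) for Esrrb, G3bp1 (0.994) and Nanog (0.992) for Nr5a2, L1td1 (0.986) and Sdad1 (0.979) for Nr0b1, and Adprh (0.984) and Myo1f (0.984) for Tfcp2l1. For Gbx2 they were Mtf2 (0.9946) and Kat6b (0.9945), for Prdm14 Myh14 and Inhbb (both 0.996), and for Zfp42 Jarid2 (0.997), a Polycomb partner, and Mymx (0.995). Klf15 (0.979) and Pcsk6 (0.979) were nearest to Tcl1, and Wdr62 (0.950) and Ttyh2 (0.933) to Tbx3. With 3 groups far apart, any gene with the same order of group means correlates highly, and no member was among another's nearest 2.

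In the single-cell libraries, cells with at least 1000 genes and at most 10% mitochondrial counts were kept, and a cell was called endoderm when Sparc, Col4a1 and Col4a2, genes of the basement membrane, summed to 3000 or more counts per 1000000 UMIs (unique molecular identifiers), a unit also written CPM. In -4OHT, 1380 of 5324 cells (25.9%) were endoderm and 3944 were other cells, and in +4OHT 6092 of 6299 (96.7%) were endoderm and 207 were other. The rule separated the markers it did not use: in -4OHT, Gata6 was at 207 CPM in endoderm and 9.94 in other cells, and Sox2 at 34.7 and 332. The 2 libraries shared 21 barcodes. Scrublet called 118 of the -4OHT endoderm cells (8.55%) as doublets and 0 cells in +4OHT. Whether doublets were few or missed in +4OHT was not tested, and leaving out called doublets changed -4OHT only. With 1 library per condition there is no test, and intervals cover counting error only.

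The targeted gene was lower after 4OHT: Pou5f1 in endoderm cells was at 15.8 CPM (95% interval 14.2 to 17.5) in -4OHT and 1.93 (1.65 to 2.24) in +4OHT. Its ratio of +4OHT to -4OHT was 0.122, and 0.148 without called doublets. Among cells at or below the median UMI count of their class the ratio was 0.348. In endoderm cells above 18000 CPM of Sparc, Col4a1 and Col4a2 it was 0.468, against 0.107 in those from 9000 to 18000. Whether the deleted part includes the 3′ end that was counted is not given in the sources used here. Of the 9 genes, 6 reached 5 CPM in either library, and 5 of these 6 were lower in +4OHT endoderm by 2-fold or more (Esrrb, Tfcp2l1, Nr0b1, Tcl1 and Zfp42), against 5.11% of all 10202 genes at that level (9.76% were 2-fold or more higher, and 0 of the 6). Esrrb, Nr0b1 and Tcl1 reached 5 CPM in -4OHT only, so the minimum itself set them to be lower in +4OHT, though not by how much. Tfcp2l1, Zfp42 and Tbx3 reached it in both libraries. The median ratio of +4OHT to -4OHT was 0.136 over the 6 and 1.12 over all genes.

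The 5 genes differed widely in what remained. Esrrb went from 11.4 CPM (10.1 to 12.9) to 0.114 (0.055 to 0.210), that is 10 UMIs in 6092 cells, for a ratio of 0.010 (0.005 to 0.019). Tcl1 went from 13.4 (12.0 to 15) to 0.011 (0.0003 to 0.064), which was 1 UMI, and its ratio was 0.001 with an upper bound of 0.005. Nr0b1 went from 17.1 (15.5 to 18.8) to 0.891 (0.704 to 1.11), for a ratio of 0.052 (0.040 to 0.067), which was 0.204 among cells at or below the median UMI count. These 3 were close to absent from +4OHT endoderm, as were Nanog (0.217 CPM) and Sox2 (1.06).

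Zfp42 and Tfcp2l1 were lower but stayed well detected. Zfp42 was at 100.3 CPM (96.3 to 104.4) in -4OHT and 22 (21.0 to 23.0) in +4OHT endoderm, and Tfcp2l1 at 36.2 (33.8 to 38.7) and 8.05 (7.47 to 8.67), with the ratios 0.219 (0.206 to 0.233) and 0.222 (0.201 to 0.246). Among cells at or below the median UMI count these were 0.447 and 0.281. Tbx3 was at 112 (107 to 116) and 76.4 (74.6 to 78.3), with a ratio of 0.685 (0.654 to 0.716). The remaining genes were under the minimum in both libraries: Gbx2 at 4.37 and 0.103 CPM, Nr5a2 at 2.48 and 0.388, and Prdm14 at 1.76 and 1.06. For the last 2 the direction depended on the cells used. Without called doublets, all of which were in -4OHT, Prdm14 was at 0.842 and 1.06. Among cells at or below the median UMI count of their class, Prdm14 was at 1.06 and 1.97. In those cells Nr5a2 was at 0.133 and 0.140 (1 UMI in -4OHT).

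**Figure D3:**
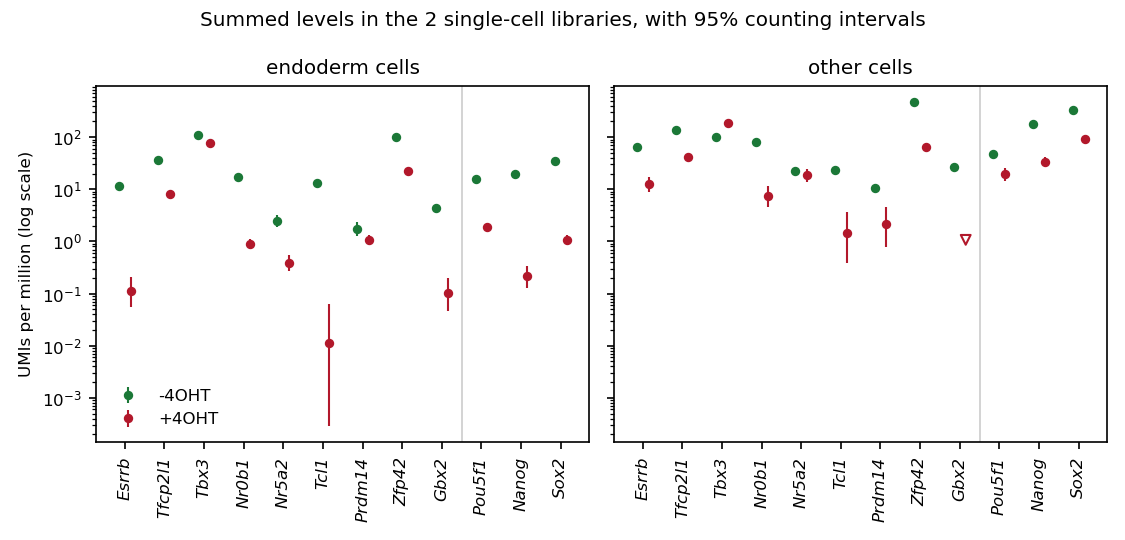
UMIs per 1000000 (CPM), summed over endoderm cells (left) and other cells (right) of the libraries -4OHT (green) and +4OHT (red), on a log axis with 95% Poisson intervals, for the 9 genes and, right of the grey line, Pou5f1, Nanog and Sox2. The open triangle is Gbx2 with 0 UMIs, drawn at the level of 3 UMIs. In endoderm Tbx3 changes least of the genes at 5 CPM or more, and Tcl1 and Esrrb are near 0 after 4OHT.

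In the other cells, 7 of 9 genes were lower in +4OHT by 2-fold or more (7.63% of all 10780 genes at 5 CPM). Among them, Tcl1, Prdm14 and Gbx2 reached 5 CPM in -4OHT only, so the minimum itself set their direction. Zfp42 was at 468 CPM in -4OHT and 64.7 in +4OHT, Tfcp2l1 at 139 and 41.8, Nr0b1 at 80.1 and 7.51, Esrrb at 64.0 and 12.5, Tcl1 at 23.0 and 1.43 and Prdm14 at 10.6 and 2.14. Gbx2 had 2077 UMIs in -4OHT (26.7 CPM) and 0 in +4OHT, at least 24.9-fold lower against a floor of 3 UMIs. Nr5a2 (22.9 and 18.6 CPM, ratio 0.812, interval 0.604 to 1.07) was not, and Tbx3 was higher (103 and 188, ratio 1.83, 1.67 to 2.00). Pou5f1 itself was still detected in these cells, at 47.9 CPM in -4OHT and 19.3 in +4OHT, with a UMI in 20.8% of the +4OHT cells. Its ratio was 0.403 (0.302 to 0.527), and 0.689 among cells at or below the median UMI count. Sox2 was at 332 and 93.3 CPM and Nanog at 180 and 34.0. The makeup of the 207 other cells of +4OHT differed from that of -4OHT: 6 of 8 detected trophectoderm genes, Cdx2 (79.0 CPM) and Krt7 (33.6) among them, 6 of 7 detected 2-cell-like genes, with Tcstv3 at 110 CPM, 6 of 7 fibroblast genes and 12 of 16 endoderm genes were 2-fold or more higher there than in -4OHT (23.7% of all genes). Cdx2 had a UMI in 27.1% of these cells against 4.94% in -4OHT, while few cells carried the 2-cell-like and fibroblast levels, with Tcstv3 in 1.45% against 2.13% and Col1a1 in 2.42% against 1.98%. The part of this makeup in the ratios was not tested.

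Within -4OHT, levels in endoderm were compared with those in other cells of the same library. As a percent of the level in other cells, Sox2 was at 10.4% (interval 9.73 to 11.2) and Nanog at 11%. Nr5a2 was at 10.8% (8.21 to 14.0), and Gbx2 (16.4%), Prdm14 (16.6%), Esrrb (17.9%), Nr0b1 (21.4%), Zfp42 (21.4%) and Tfcp2l1 (26.0%) were above Sox2. Pou5f1 stood at 33.0%, Tcl1 at 58.5% (51.7 to 65.9) and Tbx3 at 109% (104 to 114). Most of these percentages were lower in 2 stricter sets of cells. Without called doublets, Sox2 was at 3.33%, Nr5a2 at 2.78%, Esrrb at 12.1%, Zfp42 at 14.4%, Nr0b1 at 14.9%, Tfcp2l1 at 18.2%, Tcl1 at 58.7% and Tbx3 at 110%. Among cells at or below the median UMI count of their class, an alternative chosen after seeing the data, Sox2 was at 1.99% (1.49 to 2.60), Nr5a2 at 0.617% on 1 UMI, Gbx2 at 3.25%, Esrrb at 6.53% (4.45 to 9.25), Nr0b1 at 8.5%, Prdm14 at 8.63%, Zfp42 at 10.8%, Tfcp2l1 at 16.8%, Tcl1 at 30.3% (22.1 to 40.7) and Tbx3 at 87.8%. The order of Tbx3, Tcl1, Tfcp2l1, Zfp42, Esrrb and Sox2 was the same in all 3 settings, while other genes changed places. Nr0b1 was above Zfp42 without called doublets and below it among cells at or below the median UMI count. Prdm14 was below Esrrb over all cells and above it among cells at or below the median UMI count.

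**Figure D4:**
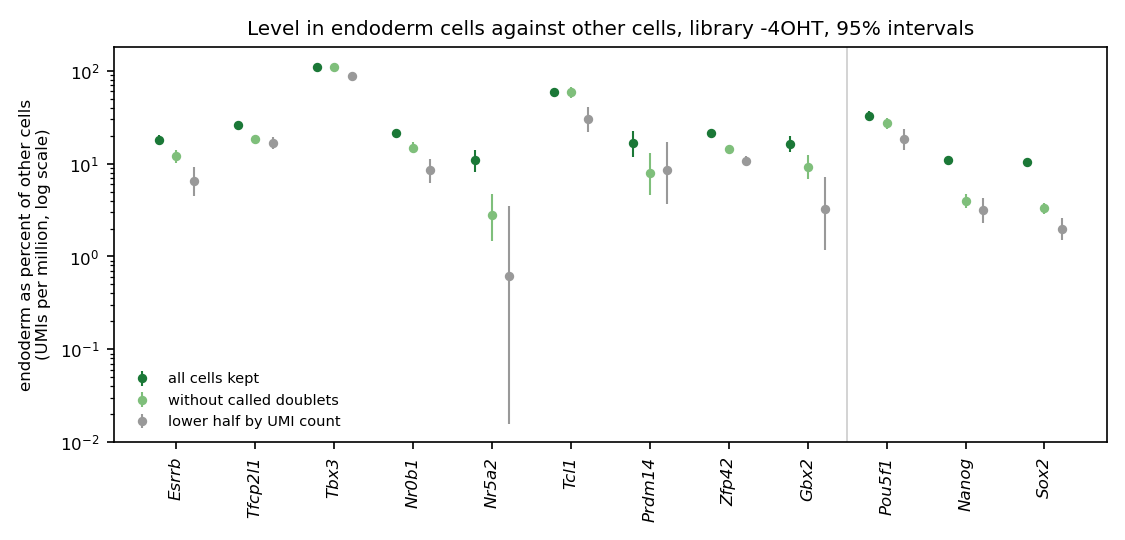
Level in endoderm cells as a percent of the level in other cells of library -4OHT (log axis, 95% intervals), for all cells kept, without called doublets, and for cells at or below the median UMI count. Tbx3 stays near 100%, Tcl1 is next, and Nr5a2 drops to the level of Nanog and Sox2 or below.

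Levels also varied with the level of the 3 rule genes, the same values that define an endoderm cell here. In -4OHT endoderm, Esrrb was at 27.8 CPM in the 85 cells nearest to the cutoff (3000 to 4500 CPM of the 3 rule genes), at 17.9 in 330 cells up to 9000, at 6.68 in 701 cells up to 18000 and at 2.5 in the 264 cells above. Nr0b1 (53.3, 27.6, 7.21 and 4.06), Zfp42 (194, 149, 67.0 and 45.0) and Tfcp2l1 (60.8, 49.7, 27.0 and 21.9) were lower in the same order. So were Nanog, at 49.5, 33.5, 8.73 and 8.12, and Sox2, at 92.4, 63.2, 13.4 and 6.56. The median UMI count went from 25402 to 11454. The classes were not computed without called doublets, and the part of barcodes with mixed RNA in this order was not tested. Tcl1 was highest in the class from 4500 to 9000, at 16.0, 20.001, 12.1 and 1.56 over the 4 classes, and Tbx3 was at 118, 125, 109 and 88.4. In each of these 4 classes all 9 genes were lower in +4OHT than in -4OHT, with doublets kept, other than Tbx3 in the lowest (136 against 118 CPM, on 28 cells of +4OHT). In those 28 cells 6 of the 9 genes had 0 UMIs, so that class has little depth. Above 18000 CPM, -4OHT held 1 UMI of Nr5a2, 1 of Gbx2 and 5 of Prdm14, too few to set a direction. Prdm14 was there at 1.56 CPM (0.507 to 3.64) in -4OHT and 1.37 (1.03 to 1.79) in +4OHT. Among cells above 18000 CPM the ratios were nearer to 1 for Zfp42 (24.5 against 45.0) and Tfcp2l1 (7.16 against 21.9), and Esrrb was at 0.076 against 2.5 and Tcl1 at 0 against 1.56.

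**Figure D5:**
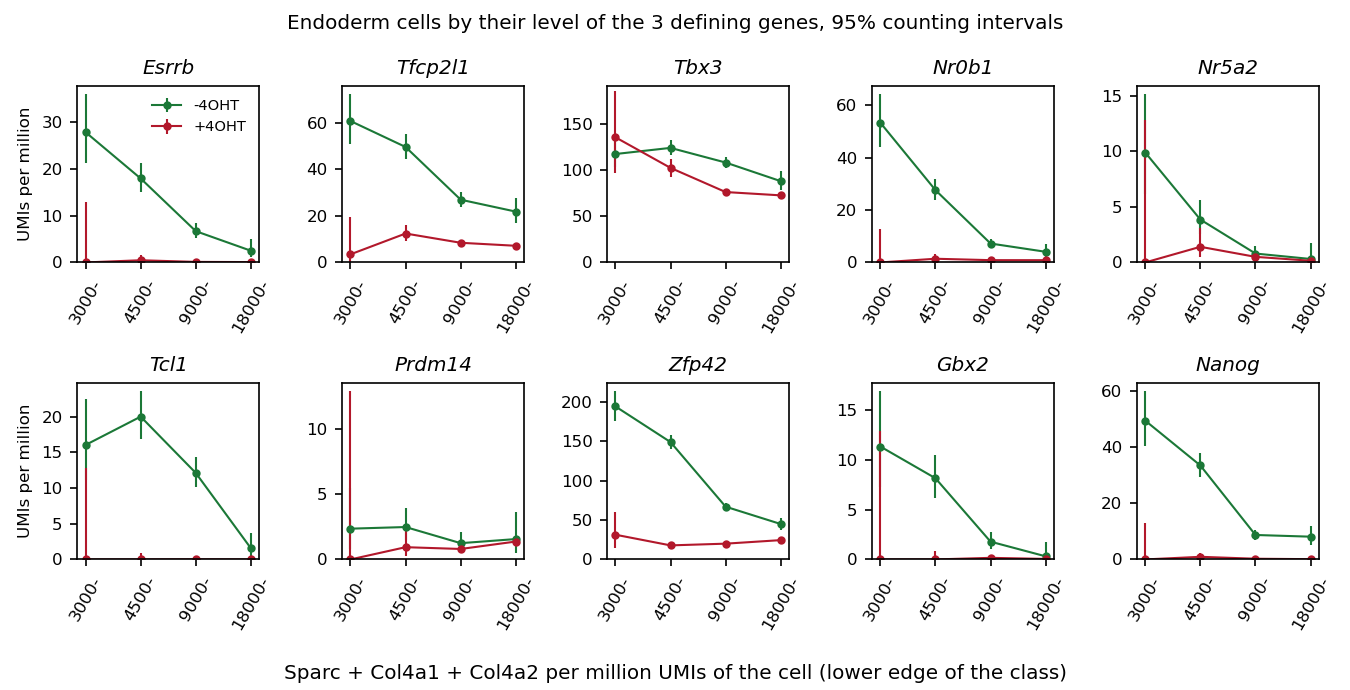
CPM (UMIs per 1000000) in endoderm cells grouped by their level of Sparc, Col4a1 and Col4a2 (lower edge of each class on the horizontal axis), for -4OHT (green) and +4OHT (red), with 95% Poisson intervals and linear axes from 0; Nanog is shown for reference. Most genes decline to the right in -4OHT and are low throughout in +4OHT, and Tbx3 declines least of the genes shown.

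To compare cells at equal depth, each was thinned to 5000 UMIs, which left out 24 of 1380 and 76 of 6092 endoderm cells. At least 1 of the 9 genes was then detected in 62.8% (60.1 to 65.3) of -4OHT and 39.4% (38.1 to 40.6) of +4OHT endoderm cells, and before thinning in 84.7% and 67.4%. At least 3 were detected in 8.04% and 0.316%, against 51.1% of other cells of -4OHT, and no cell showed all 9. Tbx3 had a UMI in 38.1% and 29.6% of endoderm cells, Zfp42 in 28.4% and 10.0%, Tfcp2l1 in 12.2% and 3.62%, Nr0b1 in 5.97% and 0.499%, Tcl1 in 4.72% and 0 of 6016 cells, which allows a share of cells with a UMI at this depth of up to 0.0499% (3 cells), and Esrrb in 4.35% and 0.0499%. As a background, Pdgfra, which marks endoderm, had a UMI in 1.42% of other cells of -4OHT against 48.7% of endoderm cells. In the other direction, Sox2 and Nanog, which mark epiblast-like cells, had a UMI in 8.48% and 5.38% of -4OHT endoderm cells. There the share of Nr0b1 lay between these 2, and those of Tcl1 and Esrrb lay below both. The part of RNA from epiblast-like cells in these shares was not tested. Fibroblast cells gave no clean background, since all 21 in +4OHT and 6 of 8 in -4OHT also passed the endoderm rule.

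Endoderm cells of -4OHT with a Pou5f1 UMI at that depth (75 of 1356) had higher CPM of most of the 9 genes than those without. The ratio was 3.19 for Gbx2 (95% interval 1.83 to 5.29), 2.83 for Tcl1 (2.07 to 3.81), 1.64 for Nr0b1 (1.16 to 2.26) and Esrrb (1.07 to 2.43), 1.63 for Tfcp2l1 (1.29 to 2.03), 1.5 for Zfp42 (1.30 to 1.72) and 1.28 for Tbx3 (1.11 to 1.47). For Nr5a2 and Prdm14, on 4 and 1 UMIs, the intervals included 1. Nanog was also higher in these cells (29.6 against 19.1 CPM), as was Sox2 (65.0 against 32.6), and their median UMI count was 18161 against 15360. In +4OHT, 58 of 6016 cells had a Pou5f1 UMI, and the ratio was 2.09 for Tbx3 (1.72 to 2.52) and 1.80 for Zfp42 (1.19 to 2.61). It was 8.30 for Nr0b1 (2.62 to 20.3), 13.1 for Prdm14 (5.81 to 26.2) and 60.6 for Gbx2 (9.81 to 284). In the 58 cells Nr0b1 had 5 UMIs, Prdm14 9 and Gbx2 3. The intervals count UMIs of the same cell as independent, so very few cells could make these large ratios. For Tfcp2l1 (1.39) and Nr5a2 (3.67) the intervals included 1, and Esrrb and Tcl1 had 0 UMIs in the 58 cells.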

How the data were processed

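The files deposited by the authors hold unnormalized counts: reads by gene in 9 bulk libraries (stranded kit, single-end) and UMIs by gene and cell barcode in 2 single-cell libraries, the latter made with Cell Ranger 6.1.2 on mm10. For bulk, aligner, counter, annotation and strand setting were not given in the sources used here. Bulk groups were taken from the labels. In the bulk table, 35 lines without a gene name (0 reads) were left out. edgeR 4.0.16 (R 4.3.3) was run with filterByExpr, TMM, glmQLFit and glmQLFTest on all 9 libraries with the group as the only term and Benjamini-Hochberg adjustment over 14185 genes. DESeq2, the study's tool, was run in version 1.42.0 as an alternative. Log2 CPM had a prior count of 2. The study calls the bulk libraries biological replicates and the labels do not say how they were separated. The p-values measure the spread between these libraries. No pair of replicates agreed within sampling noise (chi-square per degree of freedom 16.7 or more). Replicate numbers paired the DP and Pdgfra+ libraries: same-numbered libraries deviated together (r = 0.271, 0.477 and 0.321 over genes), which was not so for Oct4+.

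Of 14179 barcodes, the number the study gives before its own filter (thresholds not given in the sources used here), 11623 were kept. UMIs were summed per class and library and given as CPM with exact Poisson or conditional intervals (95%, scipy 1.17.1). Scrublet was run in scanpy 1.11.5 with an expected rate of 6%. The scripts were tested on simulated data. Named genes are the 9, Pou5f1, Nanog, Sox2, Pdgfra and Gata6, the 3 most changed genes of each other list among those called in DP or Oct4+ against Pdgfra+, and the 2 genes most like each member over the libraries. Sall4, Esrrg, Nr5a1, Lum, Dcn, Postn, Cdx2, Krt7 and Tcstv3 were named after their values were seen. The genes, lists and tests were chosen with earlier results of these data known. The result of 1 listed gene is not reported here.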

Additional observations from a re-analysis of the deposited data

Results flagged for a closer look

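Tbx3 moved in opposite directions after 4OHT in the 2 cell classes: its ratio of +4OHT to -4OHT was 0.685 in endoderm cells and 1.83 in other cells. With 1 library per condition this difference was not tested. Among cells at or below the median UMI count of their class the ratios were 0.798 and 2.08. The other cells of +4OHT numbered 207 and held more trophectoderm marker RNA than those of -4OHT (Cdx2 at 79.0 against 3.67 CPM). The groups of 3 bulk libraries were too small for a search for outlying libraries.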

How the results depend on the processing

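The count of genes higher in Oct4+ than in Pdgfra+ was 8 of 9 in every setting, and that in Oct4+ against DP was 6 or 7. From Pdgfra+ to DP the count was 5, with 7 in DESeq2 and without a filter on low counts, and 2 to 7 when libraries were left out: 2 without any Pdgfra+ replicate or DP replicate 2 or 3 (Esrrb and Zfp42), and 7 without DP replicate 1. Gbx2 and Nr5a2 were too low to test in fits of the 6 DP and Pdgfra+ libraries. With a replicate block the counts were 5, 6 and 8 of 9, and 1 for unequal steps; the block changed no call of the 9 genes. For unequal steps (1, Tcl1) the count was 2 in DESeq2, 4 with no filter and 0 to 2 when libraries were left out. Directions changed only for differences that were not called: Tcl1 from DP to Oct4+ was between -0.18 (without Oct4+ replicate 1) and 1.03, and the difference of steps of Esrrb was between -0.25 and 0.79 when libraries were left out, negative without Pdgfra+ replicate 1 or DP replicate 3. Library totals without TMM moved the median of all genes from 0.04 to 0.29 in Oct4+ against DP and the share of positive calls for unequal steps from 68.3% to 53.4%. The median DP position was 0.382 to 0.476 when libraries were left out and 0.400 to 0.439 in the other settings.

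In endoderm the count of genes at least 2-fold lower after 4OHT was 4 or 5 in all settings, Esrrb falling under 5 CPM among cells at or below the median UMI count. The share of endoderm cells with any of the 9 genes was 84.7% and 67.4% unthinned in -4OHT and +4OHT, and 53.0% in -4OHT among cells at or below the median UMI count. The causes were not tested. Depth limits Nr5a2, Prdm14 and Gbx2, which had 36 reads or fewer in every endoderm-sorted bulk library.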
